A study of Mus musculus with 6 samples.

Results

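Ribosome biogenesis is followed here through 41 genes whose proteins make ribosomal RNA, process it or build the ribosomal subunits in the nucleolus. The list was set by gene name and not by a threshold on measured values, though with earlier results of these data known, and all 41 were found among the 29374 genes with any read and among the 16656 genes tested. Poly(A) RNA was sequenced from CD11b+Gr1+ splenocytes, sorted from tumor-bearing Mll-AF9 mice, with 3 libraries of the Rpl22+/+ genotype and 3 of Rpl22-/-. Mice of both genotypes carried the Mll-AF9 fusion as a knockin allele and had a C57BL/6 background through backcrossing. The Rpl22-/- mice lacked Rpl22, a protein of the large ribosomal subunit, from the germline. The study speaks of young adult mice for all its experiments, but its Mll-AF9 mice were killed on symptoms or at set times. Its text gives no age for the mice sampled here. The labels do not say whether each library came from a different mouse, and the study's description of this experiment names a single mouse identifier for each genotype. P-values here therefore measure only the spread between libraries, which may be technical, and if the libraries of a genotype came from the same mouse, genotype and individual leukemia cannot be told apart.

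In the nucleolus, RNA polymerase I transcribes the ribosomal genes into a long precursor RNA. Small nucleolar ribonucleoproteins of the box C/D and H/ACA classes methylate and pseudouridylate this precursor, the small subunit processome folds and cleaves it, and separate sets of assembly factors carry the pre-40S and pre-60S particles to the cytoplasm. In blood cells these genes are highly expressed in dividing progenitors, their expression declines with granulocyte maturation, and Myc is a well-known activator of many of them.

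Between the genotypes, 12 of the 41 genes were higher in Rpl22-/- leukemias and 2 were lower, while 27 did not pass an adjusted p-value of 0.05 (edgeR). Those that rose were Tsr1, Wdr12, Nop56, Dkc1, Wdr43, Rrp9, Rrs1, Polr1b, Nop14, Wdr75, Nop58 and Nob1, and those that fell were Rrp1b and Polr1a. By comparison, 13.7% of all genes tested were higher and 13.8% lower. The median log2 fold change was 0.46 over the 41 genes and 0.07 over all genes. With no factor for library composition the median of all genes moved to 0.19 and the share of higher genes among all those called from 49.8% to 61.5%, and the median of the 41 genes then lay 0.41 above that of all genes, against 0.39 before. Most of these differences were modest. Only Rrp9 rose by over 2-fold, as did 8.93% of all genes, and 0 fell by over 2-fold (0 also at an unadjusted p-value under 0.05, with edgeR), against 8.54% of all genes. All 14 genes that passed had groups of libraries that did not overlap, which is closely tied to the call itself and is no separate evidence. In total the 3 Rpl22-/- libraries lay above the 3 Rpl22+/+ libraries in 18 genes and below them in 3, where 23.9% and 22.2% of all genes did so.

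The number of genes called depended on single libraries. Rpl22+/+ replicate 2 stood apart from the other Rpl22+/+ libraries, and without it 24 of the 41 genes were higher and 3 lower, the third being Utp14a, with 20.7% of all genes higher and 19.3% lower. All 12 genes named above as higher were among the 24, and the others were Fbl, Nhp2, Nop10, Gar1, Nolc1, Nat10, Bysl, Rrp12, Bop1, Nop2, Nop16 and Mybbp1a. With replicate number as a block, 19 were higher and 2 lower, against 17.7% and 16.1% of all genes. When any other library was left out, fewer passed. Without Rpl22+/+ replicate 1, 6 (14.6%) were higher, against 8.06% of all genes, and without Rpl22+/+ replicate 3, 4 (9.76%), against 6.76%. Without Rpl22-/- replicate 2, 5 (12.2%) were higher, against 9.55% of all genes, and without Rpl22-/- replicate 1 or 3 only 3 (7.32%), against 8.68% and 8.11%. In these last 2 fits the share of the 41 genes called higher was thus no larger than that of all genes. Tsr1, Nop56 and Wdr12 passed in all 6 fits that left out a library, whereas Rrp9, Nop58, Nop14 and Nob1 passed in that without Rpl22+/+ replicate 2 and in none of the other 5. The genes that fell were both lost without Rpl22-/- replicate 1 or replicate 3, and Polr1a also without Rpl22+/+ replicate 1 or replicate 3.

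Promoters are given for the 4 genes with the smallest p-values, since these rose together. RefSeq promoter sequences on GRCm38.p6, from 250 bases before the start to 50 after it, were found for 35 of the 41 genes. For Wdr12, which has 3 starts there, the first listed is shown. Capitals mark the E-box CACGTG bound by Myc, the GC box GGGCGG bound by Sp1 and the ETS motif CCGGAAGT, on either strand. The windows are chr11:74897830-74898129 on the plus strand for Tsr1, chr1:60098451-60098750 on the minus strand for Wdr12, chr2:130274162-130274461 on the plus strand for Nop56 and chrX:75095604-75095903 on the plus strand for Dkc1.
Tsr1: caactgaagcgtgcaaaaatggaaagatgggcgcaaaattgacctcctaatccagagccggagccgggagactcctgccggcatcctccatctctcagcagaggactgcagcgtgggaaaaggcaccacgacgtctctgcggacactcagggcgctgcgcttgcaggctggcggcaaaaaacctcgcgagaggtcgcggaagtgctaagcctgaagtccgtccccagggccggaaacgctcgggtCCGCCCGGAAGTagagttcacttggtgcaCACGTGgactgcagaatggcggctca
Wdr12: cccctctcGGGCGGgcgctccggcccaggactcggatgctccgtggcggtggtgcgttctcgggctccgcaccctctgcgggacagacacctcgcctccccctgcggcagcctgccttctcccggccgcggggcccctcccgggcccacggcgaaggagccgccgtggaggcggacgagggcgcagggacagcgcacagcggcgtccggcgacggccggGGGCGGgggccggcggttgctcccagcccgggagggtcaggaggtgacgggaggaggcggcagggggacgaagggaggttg
Nop56: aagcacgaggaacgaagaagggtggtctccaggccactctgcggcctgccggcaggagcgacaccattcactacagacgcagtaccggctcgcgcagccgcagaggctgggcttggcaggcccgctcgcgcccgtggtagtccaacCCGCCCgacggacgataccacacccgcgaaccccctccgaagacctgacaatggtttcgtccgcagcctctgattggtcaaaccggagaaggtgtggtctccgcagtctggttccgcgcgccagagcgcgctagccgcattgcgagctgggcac
Dkc1: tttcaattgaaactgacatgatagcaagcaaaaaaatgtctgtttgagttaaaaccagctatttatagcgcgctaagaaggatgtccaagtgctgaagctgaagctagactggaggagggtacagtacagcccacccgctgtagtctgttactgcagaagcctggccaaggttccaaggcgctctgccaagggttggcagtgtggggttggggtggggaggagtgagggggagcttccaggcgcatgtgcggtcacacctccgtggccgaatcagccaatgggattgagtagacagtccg

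The Tsr1 window holds all 3 motifs, with a GC box and an ETS motif that overlap and an E-box that begins at base 275 of the window. The windows of Wdr12 and Nop56 hold only GC boxes and that of Dkc1 none of the 3. Over all member promoters, 8 of 43 windows (18.6%) held the E-box, against 7.15% of 32851 mouse promoters, and the genes with it were Ltv1, Mybbp1a, Nop2, Pes1, Rrn3, Tsr1, Utp20 and Wdr43. Of these, Tsr1 and Wdr43 were among the 12 genes that rose, 11 of which had a window. GC boxes were in 69.8% of member windows against 35.7% of all, and the ETS motif in 16.3% against 3.89%. Several windows can belong to 1 gene, and a match of letters is a description of the sequence only.

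**Figure D1:**
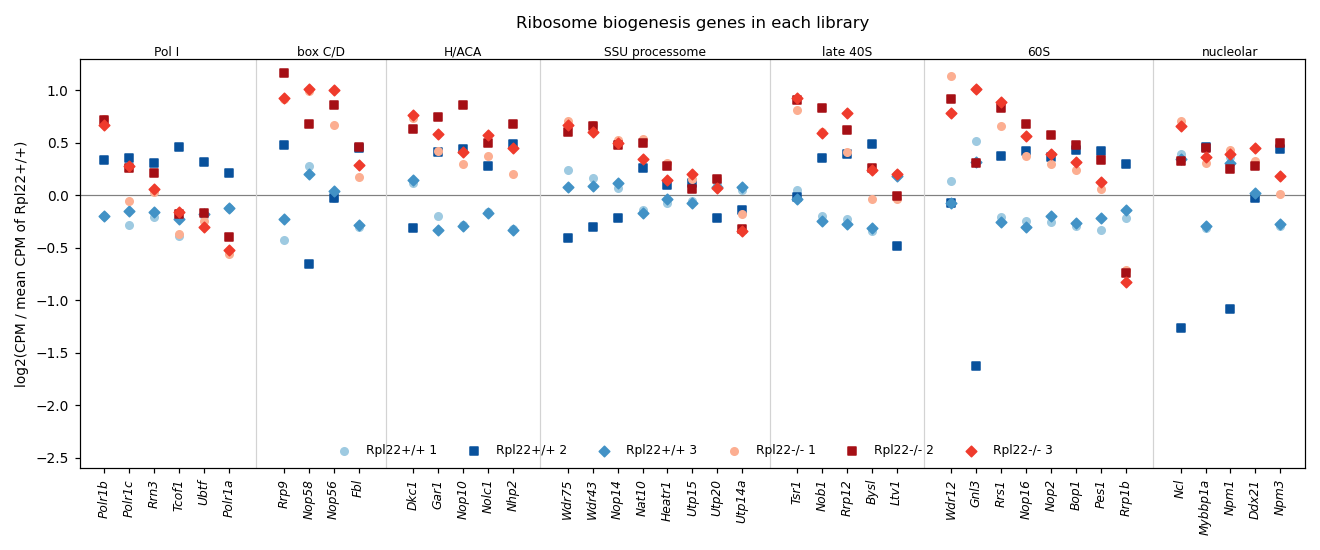
Level of each of the 41 genes in each library, as log2 of CPM (reads scaled to a common library size) over the mean CPM of the 3 Rpl22+/+ libraries, in 7 groups by role. Blue points are Rpl22+/+ and red points Rpl22-/-, and the dark blue squares of Rpl22+/+ replicate 2 lie far below the other libraries for Gnl3, Ncl, Npm1 and Nop58.

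The libraries held 35828500 to 102866127 estimated reads. Rpl22 itself was lower in Rpl22-/- but not absent, at 58.3 to 89.9 CPM against 148 to 235 CPM. Among the sort markers, Itgam, which encodes CD11b, was present at 1838, 2085 and 1861 CPM in Rpl22+/+ and at 1036, 994 and 815 CPM in Rpl22-/-. Ly6g, one of the Gr1 antigens, was at 149 to 178 CPM against 11.1 to 15.7 CPM, and Ly6c2, the other, at 768 to 1280 CPM against 1186 to 1678 CPM. Differentiation markers moved with genotype. All 5 primary granule genes were higher, with summed levels of 2389 to 4095 CPM in Rpl22+/+ and 22478 to 27374 CPM in Rpl22-/-, and all 8 secondary and tertiary granule genes were lower, from 43196 to 58347 CPM against 11597 to 15905 CPM. Erythroid genes were higher in 6 of 7 (84.6 to 128 CPM against 579 to 1152 CPM), with the erythroid regulator Klf1 at 0 in 2 Rpl22-/- libraries. T cell genes were lower in 5 of 6 (66.3 to 93.5 CPM against 27.5 to 44.5 CPM). Of 6 B cell genes 0 passed with edgeR (1 at an unadjusted p-value under 0.05, 1 with DESeq2, 3319 to 5329 CPM against 3205 to 5161 CPM), and of 7 monocyte and macrophage genes 3 were higher and 2 lower (509 to 912 CPM against 259 to 399 CPM). Platelet genes summed to 2.79 to 4.51 CPM against 3.36 to 3.64 CPM, with Pf4 and Ppbp at or near 0 throughout and 0 of 2 tested genes called (edgeR; 1 at an unadjusted p-value under 0.05, 0 with DESeq2). Among 4 stromal and endothelial genes tested, Pdgfrb was lower and listed at 0 in Rpl22-/-, with sums of 60.8 to 72.6 CPM against 74.3 to 94.9 CPM that came mostly from Pecam1. Of 8 cycling genes 0 passed (edgeR, 1 at an unadjusted p-value under 0.05, 0 with DESeq2), at 1266 to 1989 CPM against 1548 to 2256 CPM. Among them Mki67 was at 818, 17.3 and 669 CPM against 936, 173 and 388 CPM, lowest in the libraries numbered 2. Without Rpl22+/+ replicate 2, Mcm2 and Mcm6 were higher (log2 fold changes 0.76 and 0.55, adjusted p = 0.00656 and 0.0117, edgeR). With replicate number as a block Mcm2 was higher, as was Ighm among B cell genes, and Cd68 was lower among monocyte genes. In sorted bulk cells, a change in the mixture of cells and a change of RNA per cell cannot be told apart, and the part of these markers in the results below was not tested.

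Summed over the 41 genes, the level was 2323, 2376 and 2314 CPM in Rpl22+/+ and 2967, 3008 and 3075 CPM in Rpl22-/-, 1.29-fold higher. Per length, the sum was 1679, 1234 and 1606 TPM (abundance scaled for transcript length) against 2246, 2007 and 2244 TPM. The groups did not overlap on either scale, although replicate 2 was low on the TPM scale within both genotypes. By mean TPM over all libraries, the genes ranked from Npm1 (320.1 TPM), Nop56 (154 TPM), Ncl (124 TPM) and Fbl (123 TPM) down to Utp15 (10.1 TPM), Bysl (9.30 TPM) and Utp20 (6.30 TPM). The abundant end of this order thus held the nucleolar proteins Npm1 and Ncl with Nop56 and Fbl of the box C/D core, and the scarce end large scaffold proteins and late factors. Ncl and Fbl, neighbors in that order, overlapped across libraries, whereas Npm1 lay above Nop56, and Bysl above Utp20, in each of the 6 libraries.

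Transcription of the ribosomal genes is the task of the first group: the RNA polymerase I subunits Polr1a, Polr1b and Polr1c, the promoter and chromatin factor Ubtf, the initiation factor Rrn3 and the cofactor Tcof1. Of these 6 genes, 1 rose and 1 fell, and these were the catalytic subunits themselves. Polr1b (ENSMUSG00000027395, chromosome 2, 128942915 to 128968514, GRCm39), the second largest subunit, was at 17.7, 25.7 and 17.7 CPM in Rpl22+/+ and at 33.6, 33.5 and 32.4 CPM in Rpl22-/-. It rose by a log2 fold change of 0.70 ± 0.18 (SE, n = 3 libraries each; adjusted p = 0.0283, edgeR). Polr1a (ENSMUSG00000049553, chromosome 6, 71886037 to 71961919), the largest subunit, was at 68.9, 86.6 and 68.8 CPM against 50.8, 56.9 and 52.0 CPM, a log2 fold change of -0.49 ± 0.14 (adjusted p = 0.0443). The highest Rpl22-/- library of Polr1a was below the lowest Rpl22+/+ library, and the reverse held for Polr1b. Polr1b did not pass without replicate 1 or 3 of either genotype (adjusted p = 0.0855 to 0.117).

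These subunits form one active site, so their ratio can be read within each library. The ratio of Polr1b to Polr1a on the TPM scale was 0.431, 0.397 and 0.411 in Rpl22+/+ and 1.30, 0.995 and 1.21 in Rpl22-/-. It was thus 2.82 times as high on average, with an SD of 0.0175 in Rpl22+/+ and 0.155 in Rpl22-/-. Because Polr1b was called higher and Polr1a lower, this difference follows from those calls and is no separate evidence. Of the other ratios computed, those of Nop56 to Fbl, Nop58 to Nop56 and Dkc1 to Nhp2 overlapped between genotypes. So did Dkc1 to Gar1 and Npm3 to Npm1, whereas Bop1 to Pes1 did not. The ratio of Polr1b to Polr1a depends on how reads were assigned to transcripts, since 65.6% to 77.3% of Polr1a reads fell on transcripts annotated as retained introns or targets of nonsense-mediated decay. The coding transcript Polr1a-201 held 1619, 1599 and 1775 reads in Rpl22+/+ and 432, 1394 and 1440 reads in Rpl22-/-, with depth not scaled out.

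Among the other polymerase I genes, Ubtf was at 143, 204 and 145 CPM against 138, 146 and 133 CPM (log2 fold change -0.24 ± 0.18, adjusted p = 0.380). Polr1c, a subunit shared with RNA polymerase III, was at 16.7, 26.1 and 18.3 CPM against 19.7, 24.5 and 24.8 CPM (0.17 ± 0.21, adjusted p = 0.603). In both genes replicate 2 was the highest Rpl22+/+ library, and the genotypes overlapped. Rrn3 and Tcof1 had log2 fold changes of 0.10 and -0.23 and did not pass, and Tcof1 had a log2 fold change of 0.02 without Rpl22+/+ replicate 2. Summed over the 6 genes, the level was 357 to 531 CPM in Rpl22+/+ and 360 to 394 CPM in Rpl22-/-, so this group did not separate the genotypes as a whole.

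Box C/D ribonucleoproteins guide 2′-O-methylation, and their core consists of the methyltransferase Fbl with Nop56 and Nop58, while Rrp9 binds the U3 RNA of the processome. Of these 4 genes 3 rose, and the sum over the group went from 235, 271 and 239 CPM in Rpl22+/+ to 375, 408 and 426 CPM in Rpl22-/-. Nop56 (ENSMUSG00000027405, chromosome 2, 130116350 to 130121233) was at 99.9, 99.9 and 104 CPM in Rpl22+/+ and 162, 184 and 203 CPM in Rpl22-/-. Its log2 fold change was 0.85 ± 0.14 (adjusted p = 0.00492, edgeR), and it passed in all 20 alternative analyses. The Rpl22+/+ libraries were close together for this gene in CPM, whereas on the TPM scale replicate 2, at 83.8 TPM, lay below replicates 1 and 3, at 121 and 123 TPM.

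Rrp9 (ENSMUSG00000041506, chromosome 9, 106353162 to 106362623) was at 11.3, 21.1 and 13.0 CPM against 28.6, 33.9 and 28.8 CPM. At a log2 fold change of 1.01 ± 0.25 (adjusted p = 0.0265) it rose more than any other of the 41 genes that passed. When any library other than Rpl22+/+ replicate 2 was left out, it no longer passed (adjusted p = 0.0521 to 0.104). Rrp9 is also the only one of the 41 on chromosome 4 or 9, where 28.3% of all genes tested were higher, against 11.9% on the other chromosomes. Nop58 was at 50.6, 26.4 and 48.1 CPM against 83.1, 67.0 and 84.0 CPM (0.90 ± 0.26, adjusted p = 0.0428), with Rpl22+/+ replicate 2 far below its group, and like Rrp9 it did not pass when any library other than that was left out (adjusted p = 0.0557 to 0.127). Fbl, at 73.2, 123 and 73.8 CPM against 101, 124 and 110 CPM, did not pass (0.31 ± 0.23, adjusted p = 0.383), and replicate 2 was here the highest Rpl22+/+ library. Without that library Fbl had a log2 fold change of 0.56 (adjusted p = 0.0181), and all 4 genes of the group were higher.

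**Figure D2:**
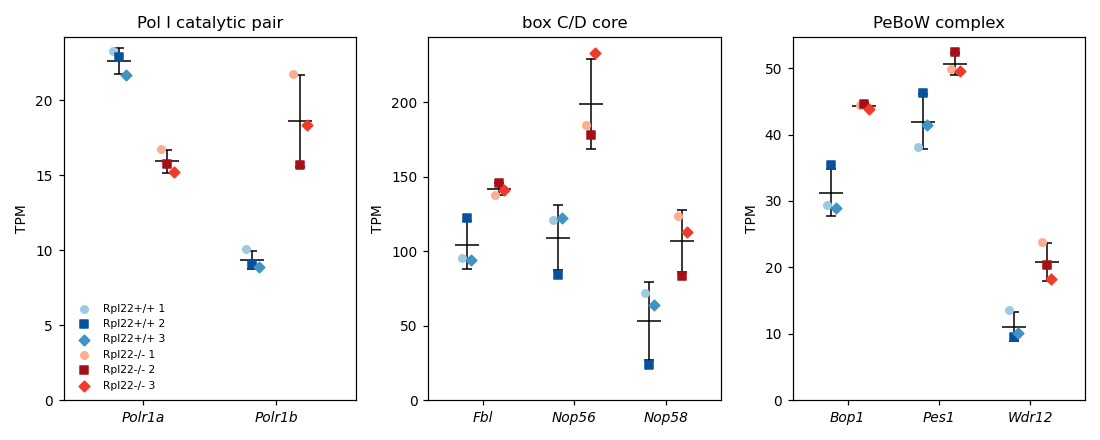
TPM of the members of 3 protein complexes in each library, with the mean and SD of each genotype as bars (n = 3 libraries). Polr1a and Polr1b moved in opposite directions, and within the box C/D core and the PeBoW complex every member had a higher mean in Rpl22-/-.

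Pseudouridylation is carried out by the H/ACA ribonucleoproteins, built from the pseudouridine synthase Dkc1 with Nhp2, Nop10 and Gar1, and Nolc1 is a nucleolar chaperone of these particles. Dkc1 alone rose in this group of 5, and the other 4 had log2 fold changes of 0.46 to 0.59. Dkc1 (ENSMUSG00000031403, chromosome X, 74139460 to 74153383) was at 39.0, 29.0 and 39.9 CPM in Rpl22+/+ and 60.1, 55.9 and 61.3 CPM in Rpl22-/- (0.72 ± 0.16, adjusted p = 0.0172, edgeR), and did not pass when any 1 of the Rpl22-/- libraries was left out (adjusted p = 0.0601 to 0.0810). Nolc1 did not overlap between groups, at 64.6, 87.4 and 64.3 CPM against 93.5, 102 and 108 CPM, yet did not pass (0.49 ± 0.16, adjusted p = 0.0701), and its log2 fold change turned to -0.06 when a curve on the adenine share of transcripts was taken out. Nor did Gar1 (14.0, 21.4 and 12.8 CPM against 21.6, 27.0 and 24.1 CPM, adjusted p = 0.0978) or Nhp2 (26.8, 47.1 and 26.7 CPM against 38.6, 53.6 and 45.9 CPM, adjusted p = 0.254). In these last 3 genes replicate 2 was the highest Rpl22+/+ library. Without it all 5 genes of the group were higher, and with replicate number as a block 4 were, all but Nhp2 (adjusted p = 0.0554).

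The small subunit processome is the large particle in which the 18S part of the precursor is first folded and cut. Of its 8 genes studied 3 rose, Wdr43, Wdr75 and Nop14, and 5 did not pass. Wdr43 was at 46.8, 33.8 and 44.2 CPM in Rpl22+/+ and 66.0, 65.9 and 63.4 CPM in Rpl22-/- (0.65 ± 0.15, adjusted p = 0.0226, edgeR). Nop14 was at 19.7, 16.1 and 20.4 CPM against 27.0, 26.1 and 26.4 CPM (0.50 ± 0.14, adjusted p = 0.0395). Wdr75, which like Wdr43 belongs to the subcomplex that binds the nascent precursor, had a log2 fold change of 0.66 ± 0.19 (adjusted p = 0.0404). In each of these 3 genes the lowest library was Rpl22+/+ replicate 2, and each still passed without it. Nop14 did not pass when any other library was left out (adjusted p = 0.0923 to 0.152), and Wdr43 and Wdr75 did not pass when Rpl22+/+ replicate 3 or any 1 of the Rpl22-/- libraries was left out (adjusted p = 0.0699 to 0.151).

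Utp14a, an activator of a processome helicase, was the exception in direction, at 41.6, 36.6 and 42.6 CPM in Rpl22+/+ and 35.6, 32.3 and 31.9 CPM in Rpl22-/-. Its log2 fold change of -0.28 ± 0.13 did not pass (adjusted p = 0.161), though the groups did not overlap and it passed without Rpl22+/+ replicate 2 (-0.39, adjusted p = 0.0167). It also passed with a curve on GC content taken out (-0.28, adjusted p = 0.0419), and with one on adenine share it was at -0.89 and did not pass (adjusted p = 0.206). Nat10, the acetyltransferase of 18S RNA, and the scaffold Heatr1 had log2 fold changes of 0.47 and 0.25 with groups that did not overlap, and neither passed, although Nat10 did with replicate number as a block (adjusted p = 0.0462). The log2 fold changes of Utp15 and Utp20, at 0.14 and 0.13, were close to their standard errors of 0.13 and 0.14.

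Factors that act late on the 40S particle include the GTPase-like protein Tsr1 and the endonuclease Nob1, which makes the last cut of 18S RNA in the cytoplasm. Tsr1 (ENSMUSG00000038335, chromosome 11, 74788897 to 74800168) had the smallest p-value of the 41 genes. It was at 25.5, 24.3 and 23.9 CPM in Rpl22+/+ and 43.3, 46.0 and 46.8 CPM in Rpl22-/-, so that each group was tight and the gap between them was wide. Its log2 fold change was 0.89 ± 0.12 (adjusted p = 0.00227, edgeR), and it also passed in the 20 alternatives, with an adjusted p-value of 0.0203 at the highest.

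Nob1 rose as well, from 17.8, 26.3 and 17.3 CPM to 31.0, 36.5 and 31.0 CPM (0.68 ± 0.20, adjusted p = 0.0443), but did not pass when any library other than Rpl22+/+ replicate 2 was left out (adjusted p = 0.0708 to 0.160). Rrp12, needed for export of the particle, had a log2 fold change of 0.62 ± 0.22 and passed with replicate number as a block (adjusted p = 0.0441) but not without it (adjusted p = 0.0823). Ltv1, an assembly factor released before the final steps, was at 30.6, 19.1 and 30.3 CPM against 26.1, 26.5 and 30.8 CPM (0.06 ± 0.21, adjusted p = 0.871), and Bysl had a log2 fold change of 0.16, or 0.45 without Rpl22+/+ replicate 2 (adjusted p = 0.0435). Within this group, then, Tsr1 passed in every fit, Nob1 depended on single libraries and the values of Ltv1 overlapped between genotypes.

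Among the 8 genes of 60S assembly 2 rose and 1 fell. Wdr12 (ENSMUSG00000026019, chromosome 1, 60108944 to 60137804), which forms the PeBoW complex with Pes1 and Bop1, was at 20.3, 17.6 and 17.6 CPM in Rpl22+/+ and 40.7, 34.9 and 31.8 CPM in Rpl22-/- (0.95 ± 0.15, adjusted p = 0.00461, edgeR). Its partner Pes1 was at 66.0, 112 and 71.6 CPM against 86.8, 105 and 90.9 CPM (0.18 ± 0.22, adjusted p = 0.614), and Bop1 at 46.7, 76.9 and 47.6 CPM against 67.6, 79.6 and 71.2 CPM (0.35 ± 0.22, adjusted p = 0.297). For both partners Rpl22+/+ replicate 2 lay among or above the Rpl22-/- libraries. Without it Bop1 passed, at 0.58 (adjusted p = 0.0117), and Pes1 was at 0.41 (adjusted p = 0.0530). On the TPM scale the ratio of Wdr12 to Pes1 was 0.355, 0.204 and 0.245 in Rpl22+/+ and 0.477, 0.389 and 0.368 in Rpl22-/-. These ratios did not overlap, but the gap between the closest libraries was small, and the ratio of Wdr12 to Bop1 did overlap between genotypes.

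Rrp1b (ENSMUSG00000058392, chromosome 17, 32255074 to 32281839), a nucleolar protein associated with pre-60S particles, fell from 28.3, 40.3 and 29.9 CPM to 20.1, 19.6 and 18.5 CPM. Its log2 fold change of -0.76 ± 0.17 (adjusted p = 0.0181, edgeR) was the largest decrease among the 41 genes, and it passed in 18 of 20 alternatives. Rrs1, which helps to place 5S RNA in the large subunit, rose from 24.6, 36.7 and 23.8 CPM to 44.9, 50.6 and 52.7 CPM (0.80 ± 0.20, adjusted p = 0.0261), and did not pass without replicate 1 or 3 of either genotype (adjusted p = 0.0601 to 0.104). The RNA methyltransferase Nop2 and Nop16 had log2 fold changes of 0.43 and 0.55 and did not pass, although Nop16 did with the block (adjusted p = 0.0400). Gnl3, the GTPase nucleostemin, was at 35.4, 8.02 and 30.8 CPM against 49.99, 30.6 and 49.98 CPM (0.81 ± 0.52, adjusted p = 0.303). In Gnl3 the replicates numbered 2 were the lowest of both genotypes, and with replicate number as a block it passed (adjusted p = 0.0415). Without Rpl22+/+ replicate 2 its log2 fold change was 0.34 and it did not pass (adjusted p = 0.240).

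The 5 remaining nucleolar proteins include Npm1, the most abundant gene of the whole list by mean TPM, and 0 of them passed (1 at an unadjusted p-value under 0.05, and 0 with DESeq2 or limma-voom). Npm1, the histone chaperone of the granular zone, was at 297, 109 and 285 CPM in Rpl22+/+ and 311, 274 and 302 CPM in Rpl22-/- (0.36 ± 0.36, adjusted p = 0.522, edgeR). Ncl, or nucleolin, was at 339, 107 and 327 CPM against 421, 323 and 407 CPM (0.57 ± 0.42, adjusted p = 0.364). In both genes Rpl22+/+ replicate 2 was far below every other library, and without it the log2 fold changes were -0.03 for Npm1 and 0.15 for Ncl.

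The RNA helicase Ddx21 was steady within groups, at 108, 106 and 110 CPM against 136, 131 and 148 CPM, and was not called (0.36 ± 0.12, adjusted p = 0.0670). Mybbp1a was at 118, 201 and 119 CPM against 181, 200 and 189 CPM (0.38 ± 0.23, adjusted p = 0.285), and passed without Rpl22+/+ replicate 2 (adjusted p = 0.00605). Npm3, a relative of Npm1, had a log2 fold change of 0.25. Npm1, Fbl and other short genes of this kind have processed pseudogenes, and how reads were shared with them was not analysed here.

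**Figure D3:**
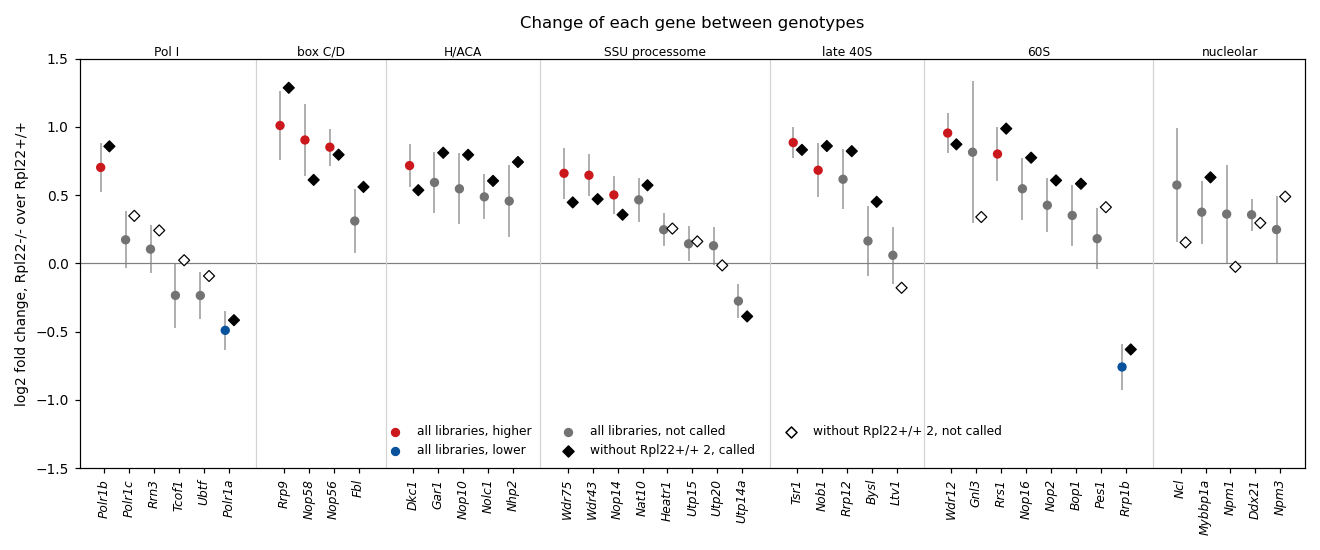
Log2 fold change of Rpl22-/- over Rpl22+/+ for the 41 genes, by role. Circles with SE bars are from all 6 libraries (3 against 3) and diamonds are from the fit without Rpl22+/+ replicate 2; filled diamonds passed an adjusted p-value of 0.05. Of the 41 circles 36 lie above 0.

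The position of Rpl22+/+ replicate 2 among the 41 genes followed the base composition of their transcripts. It was below both other Rpl22+/+ libraries in 12 genes and above both in 26. Of the 8 genes whose main transcript was richest in adenine (30.7% to 33.5%), 7 were below both, and of the 8 poorest in adenine (20.4% to 23.6%), all 8 were above both. The largest shortfalls, on the log2 scale, were those of Gnl3 (-1.98), Ncl (-1.63), Npm1 (-1.42) and Nop58 (-0.89), while Rrp9, Nhp2 and Bysl were higher by 0.78 to 0.81. Across the 41 genes the deviation of this library correlated with the adenine share at r = -0.80, and across 10191 genes with a mean of at least 5 CPM at r = -0.64. With the cytosine share it correlated about as closely among the 41 genes, at r = 0.80, and at r = 0.56 across the 10191. The points share the same 3 libraries and genes are not independent, so no p-value is given. Rpl22-/- replicate 2 deviated from its group in the same genes (r = 0.86 between the deviations of both libraries over the 41 genes).

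**Figure D4:**
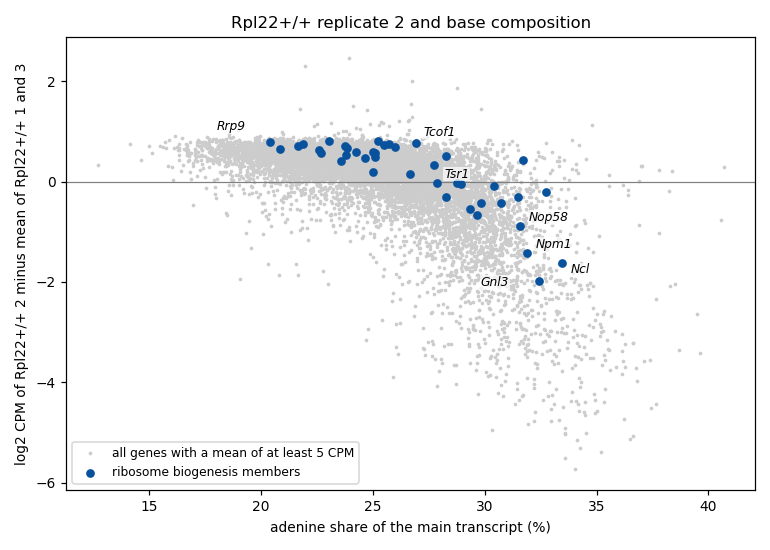
Deviation of Rpl22+/+ replicate 2 from the mean of replicates 1 and 3, in log2 CPM, against the adenine share of the main transcript. The 41 genes (blue) lie along the cloud of 10191 genes (grey), with deviations from 0.81 for Bysl to -1.98 for Gnl3.

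When a smoothed curve on adenine share was taken out of every library, 16 of the 41 genes were higher and 1 lower, where 3005 of all 16656 genes were higher and 3127 (18.8%) lower, with 9 of the 12 and Rrp1b retained. This fit was chosen after the data were seen. In it Polr1a kept a log2 fold change of -0.49 (adjusted p = 0.0603), Wdr12 was at 0.72 (adjusted p = 0.0682), Dkc1 at 0.50 (adjusted p = 0.0939) and Nop14 at 0.16 (adjusted p = 0.735), and these 4 did not pass. With a curve on GC content 20 were higher, all 12 among them, and 3 lower, where 3006 of all genes were higher and 3137 (18.8%) lower.

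Single transcripts gave fewer calls. Of 259 annotated transcripts of the 41 genes with any read, 46 were too low to test, and of the others 4 were higher and 1 lower, where 3.10% and 3.84% of all 57835 transcripts tested were. The higher transcripts were Tsr1-201, Wdr12-202, Nop56-209 and Ubtf-210, and the lower was Polr1a-201. With replicate number as a block 0 were lower, so that Polr1a-201 did not pass. Ubtf-210 alone passed in every fit that left out a library. It was listed at 0 reads in each Rpl22+/+ library and at 1634, 3405 and 3789 reads in Rpl22-/-, at least 2899-fold higher against a floor of 3 reads over the Rpl22+/+ group (adjusted p = 0.00117, edgeR). Another Ubtf transcript, Ubtf-213, mirrored it with 2737, 3049 and 2637 reads in Rpl22+/+ and 234, 0 and 0 reads in Rpl22-/-, and did not pass (adjusted p = 0.301).

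Ubtf-210 and Ubtf-213 differ in the coding sequence by an alternative exon that separates the long form of the protein, UBF1, from the shorter UBF2. UBF1 activates RNA polymerase I, and the exon lies within one of the HMG boxes that bend DNA. In the annotation on GRCm38 it is exon 8 of 21 of Ubtf-210, on chromosome 11 at 102310926 to 102311036 on the minus strand, and its 111 bases keep the reading frame with 37 codons. The exon is shown in capitals with 20 bases of the neighboring exons on each side, because it is the segment on which the 2 sets of transcripts differ.
Ubtf exon 8: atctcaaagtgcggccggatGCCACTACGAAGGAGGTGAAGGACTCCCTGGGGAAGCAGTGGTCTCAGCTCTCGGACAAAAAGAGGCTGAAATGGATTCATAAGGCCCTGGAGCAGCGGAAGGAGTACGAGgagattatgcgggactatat

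Of the full-length Ubtf transcripts 4 contain the exon and 5 do not. The share of their reads on transcripts with the exon was 34.2%, 37.5% and 35.3% in Rpl22+/+ and 61.2%, 56.1% and 63.8% in Rpl22-/-, or 35.7% ± 1.67 against 60.4% ± 3.89 (SD, n = 3 libraries each). This difference rests on the pair of transcripts that led to it: without Ubtf-210 and Ubtf-213 the share was 47.1% ± 0.232 against 46.3% ± 3.77. The comparison was chosen after the values of Ubtf-210 were seen and is given without a test. Reads across the exon junctions themselves were not analysed here, and estimated reads of near-identical transcripts can be exchanged between them.

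**Figure D5:**
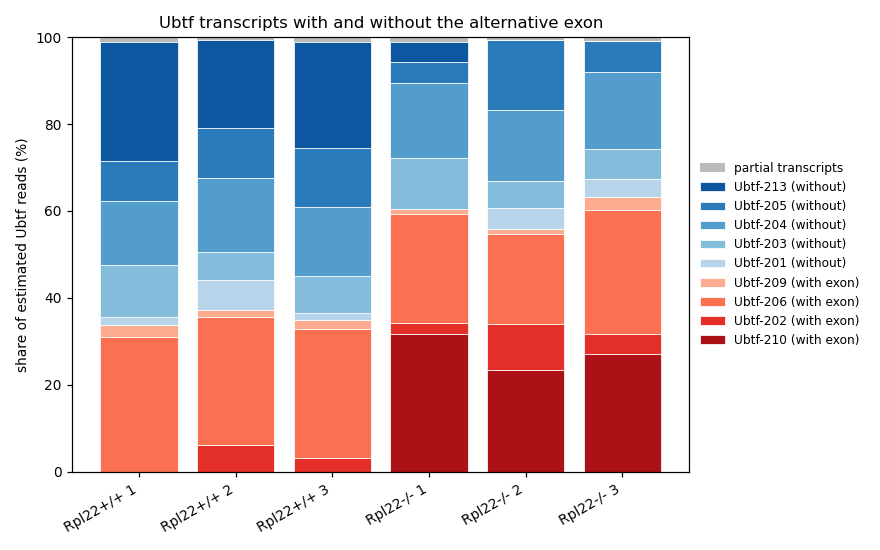
Share of all estimated Ubtf reads on each transcript in each library, with transcripts that contain the alternative exon in red and those without it in blue. Ubtf-210 is listed only in the Rpl22-/- libraries, where Ubtf-213 is at or near 0.

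Several of the 41 genes gave many reads to transcripts that are not annotated as coding. In 9 genes over 20% of reads in both genotypes fell on retained-intron, processed or nonsense-mediated decay transcripts, with a median over the 41 genes of 5.06% in Rpl22+/+ and 6.19% in Rpl22-/-. The shares of Ncl, at 70.3% ± 1.57 against 68.0% ± 2.73 (SD, n = 3), and of Polr1a, at 69.1% ± 5.22 against 75.6% ± 1.71, were the highest, followed by those of Gnl3, Rrp1b and Nop56. The introns of Ncl, Gnl3 and Nop56 are known to carry small nucleolar RNAs. Summed over the 41 genes, this share was 19.4%, 10.3% and 18.4% in Rpl22+/+ and 19.2%, 15.1% and 18.1% in Rpl22-/-, lowest in the libraries numbered 2 and otherwise alike.

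A wider list of 132 ribosome biogenesis genes, without the 41, was measured in the same fit. Of these 27 (20.5%) were higher and 1 (0.758%) lower, against 13.7% and 13.8% of all genes, with a median log2 fold change of 0.33 against 0.07. Exosome genes were higher in 6 of 14, 60S factors in 14 of 57, small subunit factors in 5 of 42, further RNA polymerase I genes in 1 of 10 and further small nucleolar ribonucleoprotein genes in 1 of 9. The smallest p-values belonged to Exosc7 (1.22 ± 0.12, adjusted p = 0.000781, edgeR) and Exosc8 (1.05 ± 0.13, adjusted p = 0.00198), both subunits of the RNA exosome, and to Ebna1bp2 (0.91 ± 0.12, adjusted p = 0.00252), a 60S assembly factor. The exosome trims the precursor of 5.8S RNA, among other substrates. The gene that fell was Riok3, an atypical kinase, at 201, 189 and 200 CPM against 152, 143 and 136 CPM (-0.45 ± 0.12, adjusted p = 0.0324).

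Many of these lie on chromosomes 4 and 9, where the median log2 fold change over all genes was 0.43, against 0.03 elsewhere. Of the 1909 genes tested there, 525 had a negative log2 fold change. Of the 18 genes of the wider list on these chromosomes, 12 (66.7%) were higher, Exosc7 and Ebna1bp2 among them, against 28.3% of all genes there, and their median log2 fold change was 0.89. Of the 114 on other chromosomes 15 (13.2%) were higher and 1 (0.877%) lower, against 11.9% and 14.5% of all genes there, with a median log2 fold change of 0.28 against 0.03. Without Rpl22+/+ replicate 2, 60 of the 132 were higher and 5 lower, where 20.7% and 19.3% of all genes were, and with replicate number as a block 42 were higher, where 17.7% of all genes were. When another library was left out, 11 to 14 (8.33% to 10.6%) were higher, near the 6.76% to 9.55% of all genes, and 0 were lower, against 8.25% to 10.9% of all genes.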

How the data were processed

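RNA-seq libraries from CD11b+Gr1+ splenocytes of Mll-AF9 mice, 3 Rpl22+/+ and 3 Rpl22-/-, were grouped by their titles. Per the labels, poly(A) RNA was used for stranded libraries, and per the submitters' processing notes reads were trimmed with Trimmomatic and quantified with Salmon on GRCm39, with versions and transcript set not given in the sources used here. The authors deposited estimated counts, TPM and effective lengths per transcript. They also deposited a table of their own DESeq2 comparison (fold changes, p-values), and of it the gene positions alone were used.

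Estimated counts were summed to genes with GENCODE vM21 (49.2% of 276623 transcripts matched, with 98.0% to 98.1% of the reads) and rounded. Genes passing the filterByExpr filter were compared by genotype with the quasi-likelihood test of edgeR 4.0.16 (R 4.3.3) and no other term, after TMM scaling, with Benjamini-Hochberg adjustment over all 16656 genes. CPM values are on the TMM-scaled library sizes, and standard errors were derived from the F statistics. Transcripts were tested likewise after rounding. Calls needed an adjusted p-value under 0.05. Depth was 35828500 to 102866127 reads, and intervals of counting were not the limit, since every pair of libraries differed by more than sampling noise (chi-square per degree of freedom of 18.0 to 447 within groups). TPM was averaged without further scaling. The scripts were tested on simulated data, in which DESeq2 gave a larger share of false calls than edgeR. The share from edgeR was still above the threshold of 0.05. Most simulated 2-fold changes were missed by edgeR, which recovered fewer of them than DESeq2.

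Deviations of libraries with the same number correlated across genes at 0.57, 0.71 and 0.13, so that a fit with the replicate number as a block was taken as paired. The pairing comes from the numbers in the titles and from these correlations, and no label says what a number shares. Rpl22+/+ replicate 3 correlated more closely with Rpl22-/- replicate 1 (0.43) than with its own number. Alternatives included size factors of DESeq2, upper-quartile or no composition factors, no filter, a mean of at least 50 counts, DESeq2 1.42.0, limma-voom and limma 3.58.1 on log2(TPM + 1) or log2(TPM + 0.1), a transcript length offset, the block, a GC correction, both together, omission of chromosomes 4 and 9, and omission of each library. The adenine correction, the omission of chromosomes 4 and 9 for the wider list and the Ubtf exon shares were chosen after the data were seen. Per-library values are given for the 2 genes of each role with the smallest p-values and the 2 with the highest mean TPM, for genes that fell and for a few others, chosen after their values were seen. Promoters follow the smallest p-values, and the wider list is named by its 3 smallest p-values in each direction that passed. The members, the wider list and the marker lists (sort, granule, monocyte, T cell, B cell, erythroid, platelet, stromal and cycling genes) were chosen with earlier results of these data known. Figures were drawn with matplotlib 3.10.9.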

Additional observations from a re-analysis of the deposited data

How the results depend on the processing

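The median log2 fold change of the 41 genes kept its sign in every alternative run, from 0.35 with the adenine correction to 0.61 with no composition factor, and from 0.36 to 0.49 when 1 library was left out. The genes called higher numbered 20 with the GC correction (3006 of all 16656 genes), 19 with limma on either TPM scale (19.7% and 19.3% of all genes), 22 with no composition factor (21.3%), 19 with the replicate block (17.7%) and 27 with the block and GC correction together (22.9%), and 3 to 24 when 1 library was left out (6.76% to 20.7%), where all genes called higher were 13.7% in the analysis reported. Those called lower numbered 1 with the adenine correction or with no filter (18.8% and 7.33% of all genes). They numbered 4 with the block and GC correction (22.4%), and 0 to 3 with 1 library left out (8.25% to 19.3%). Genes higher by over 2-fold numbered 2 with limma on log2(TPM + 0.1) or with the block, 3 with no composition factor, 0 to 1 with 1 library left out, and 0 with DESeq2 size factors, the DESeq2 test, either composition correction, the block and GC correction, a mean of at least 50 counts, the length offset or without chromosomes 4 and 9. The share of all genes higher by over 2-fold was taken only for the analysis reported (8.93%), so these counts cannot be set against a background.

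In the wider list, 52 genes (39.4%) were higher with the GC correction and 43 (32.6%) with the adenine correction, against 3006 and 3005 of all 16656 genes. With limma on either TPM scale 51 (38.6%) were higher (19.7% and 19.3% of all genes), and with no composition factor 61 (46.2%, against 21.3%). With the replicate block 42 (31.8%) were higher, against 17.7%, and with the block and GC correction 66 (50%), against 22.9%. Without chromosomes 4 and 9, 15 (13.2%) were higher, against 11.9%. With 1 library left out 11 to 60 (8.33% to 45.5%) were higher, against 6.76% to 20.7% of all genes. Lower were 2 (1.52%) with either composition correction, against 18.8% of all genes, and 3 (2.27%) with the block and GC correction, against 22.4%. With limma on TPM 0 were lower, against 12.8% to 12.9% of all genes. The same held with no composition factor (13.3%), no filter (7.33%) or the length offset (13.3%). With 1 library left out 0 to 5 were lower (up to 3.79%), against 8.25% to 19.3% of all genes. Over all genes, 3543 were higher with no composition factor, 3819 higher and 3723 lower with the block and GC correction, and 1175 to 3540 higher and 1392 to 3311 lower with 1 library left out. Member transcripts numbered 1 to 9 higher and 0 to 1 lower with 1 library left out, and those lower numbered 2 with limma-voom and 0 with the replicate block. Shares of all transcripts called were not taken for these fits, so these counts cannot be set against a background. The Ubtf exon share differed by -0.775 percentage points without Ubtf-210 and Ubtf-213, against 24.7 with them. The replicate block changed no call of the 14 genes named as higher or lower.

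Signs turned for genes that were not called. With 1 library left out, Tcof1 ran from -0.400 to 0.0234, Utp20 from -0.0144 to 0.187, Npm1 from -0.0251 to 0.582 and Ltv1 from -0.179 to 0.165. With the adenine correction Nolc1 was at -0.0646 and Ltv1 at -0.0164, and with the length offset Ltv1 was at -0.0369. Apart from the settings that leave out a library or genes, the cause of these changes was not tested. With 3 libraries a group, a gene that did not pass is not shown to be unchanged, and p-values measure the spread between libraries.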
